A study of Mus musculus with 23 samples.

Results

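The insulin-like growth factor (IGF) system was described here by 10 genes, chosen by symbol: the ligands Igf1 and Igf2, the receptors Igf1r and Igf2r, and the IGF-binding protein (IGFBP) genes Igfbp2, Igfbp3, Igfbp4, Igfbp5, Igfbp6 and Igfbp7. All 10 were found once among the 23284 genes measured. They were followed over 23 RNA-seq libraries, made from 16 single mouse bone marrow MSCs (mMSC1 to mMSC16), 5 single HL-1 cardiomyocytes (HL1cm1 to HL1cm5) and 1 population control of each cell type (mMSC-PC and HL1cm-PC). The mMSCs were purchased cells from 3-month-old male C57BL mice, used untreated at passages 6 to 11. HL1cm are an immortalised mouse atrial cardiomyocyte line, used at passages 70 to 85. The labels give the strain C57BL/6J for both cell types. Both cell types went into 1 microfluidic device, on a chip made for diameters of 17 to 25 micrometres, and a green stain told HL1cm from mMSCs. No separate cultures are named for the cells of a type. Each cell type was therefore 1 sample, and mMSC and HL1cm were set side by side without a test.

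IGF1 and IGF2 are secreted growth factors that act through the receptor tyrosine kinase encoded by Igf1r, which signals to the PI3K-Akt and MAPK pathways. The product of Igf2r, also the mannose 6-phosphate receptor, takes IGF2 to the lysosome and carries no kinase. The binding proteins hold IGFs outside the cell, and so either limit them or keep them in reserve. In bone marrow stroma and its descendants these genes are studied for their part in osteoblast growth, and in the heart for their part in growth and survival of cardiomyocytes.

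The 4 members with the greatest differences between the cell types were Igfbp7 and Igf2r, which were higher in mMSC, and Igfbp5 and Igf1, which were higher in HL1cm. The 250 bases before their RefSeq start sites (build GRCm38.p6) are shown to place these genes in the genome. Capitals mark matches on either strand to the core of a GC box, spelled GGGCGG, or of a CCAAT box. The letters TATAAA, a core of the TATA box, were searched as well and not found in these 4 windows.
Igfbp7 (chr5:77408046-77408295, - strand): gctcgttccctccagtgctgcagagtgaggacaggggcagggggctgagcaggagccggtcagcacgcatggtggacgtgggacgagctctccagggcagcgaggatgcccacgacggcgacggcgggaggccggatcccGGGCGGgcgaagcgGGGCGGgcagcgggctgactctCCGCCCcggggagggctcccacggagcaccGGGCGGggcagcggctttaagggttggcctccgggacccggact
Igf2r (chr17:12769707-12769956, - strand): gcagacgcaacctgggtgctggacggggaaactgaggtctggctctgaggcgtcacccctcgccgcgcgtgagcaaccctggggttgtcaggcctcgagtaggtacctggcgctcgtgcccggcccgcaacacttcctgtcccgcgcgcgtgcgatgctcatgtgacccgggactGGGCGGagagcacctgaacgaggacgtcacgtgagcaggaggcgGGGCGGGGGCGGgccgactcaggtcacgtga
Igfbp5 (chr1:72874866-72875115, - strand): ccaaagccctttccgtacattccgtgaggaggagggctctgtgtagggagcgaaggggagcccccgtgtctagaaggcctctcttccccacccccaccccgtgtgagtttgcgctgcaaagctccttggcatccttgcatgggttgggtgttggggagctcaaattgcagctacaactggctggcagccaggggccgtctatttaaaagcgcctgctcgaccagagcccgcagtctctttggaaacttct
Igf1 (chr10:87860861-87861110, + strand): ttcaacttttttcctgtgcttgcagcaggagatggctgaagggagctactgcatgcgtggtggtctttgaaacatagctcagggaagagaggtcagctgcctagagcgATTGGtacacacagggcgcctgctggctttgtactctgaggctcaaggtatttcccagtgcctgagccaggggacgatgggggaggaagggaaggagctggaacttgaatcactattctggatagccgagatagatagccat
The Igfbp7 window held GGGCGG 4 times and 26 CG dinucleotides, and the Igf2r window held GGGCGG 3 times and 27 CG dinucleotides. GGGCGG was found in neither the Igfbp5 window nor the Igf1 window, which had 10 and 5 CG dinucleotides. Igf1 had the letters of CCAAT once, 142 bases before the start. Over all 32841 RefSeq windows of this length, 32.7% held GGGCGG, 33.9% CCAAT and 12.4% TATAAA, and the median number of CG dinucleotides was 6. The split of these 4 windows did not hold for all members. Igf1r, also higher in mMSC, had GGGCGG 2 times and 42 CG dinucleotides, but Igfbp6, also higher in mMSC, had 0 and 7. For Igf2, seen in HL1cm libraries only, 1 window had GGGCGG 2 times with 6 CG dinucleotides. Another had it 1 time with 22, and the other Igf2 windows had none. These matches are a description of the letters only.

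Values are FPKM, the number of sequenced fragments scaled by the exon length of a gene and by the mapped fragments of a library, so that levels of different genes can be set beside each other. A listed 0 can also be a transcript that was missed. Among 509 genes that reached 100 FPKM in 15 or 16 mMSCs, 5 were listed at 0 in the remaining cell. By this choice a gene can have at most 1 such cell, and no member was in the set. The count is therefore not a rate of missed transcripts for the members. A mMSC held between 5178 (mMSC9) and 7241 genes at 1 FPKM or more, a HL1cm between 6428 and 7010, mMSC-PC 9625 and HL1cm-PC 9881. Each of the 8 mesenchymal markers examined reached 1 FPKM in at least 8 of the 16 mMSCs, with a sum of 3684 to 10457 FPKM per cell against 586 to 1005 in HL1cm. The 9 cardiomyocyte markers summed to between 30730 and 57379 FPKM in HL1cm. They were not wholly absent from mMSCs, where 11 of 16 cells had Myl7, Tnnt2 or Tnni3 at 1 FPKM or more and the 9 markers summed to 65.4 FPKM at most.

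**Figure D1:**
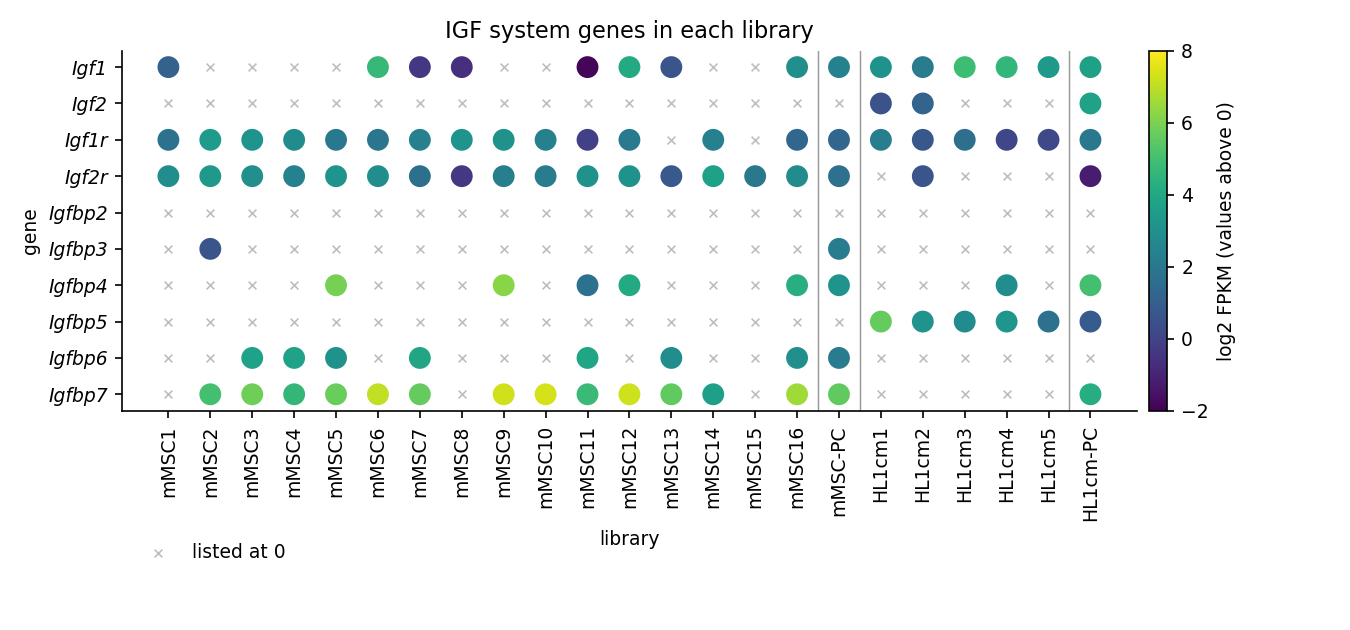
Level of the 10 IGF system genes in each of the 23 libraries. Rows are genes and columns are libraries, filled points show log2 FPKM by colour and grey crosses show values listed at 0. Igfbp7 fills 13 of the 16 mMSC columns and no single HL1cm, Igfbp5 fills all 5 HL1cm columns and no mMSC, and Igfbp2 is at 0 throughout.

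In the single mMSCs the IGF system was read mostly as receptors and Igfbp7. Igf2r was at 1 FPKM or more in 15 of 16 cells (93.8%, exact 95% interval 69.8% to 99.8%), Igf1r in 13 (81.2%, 54.4% to 96.0%) and Igfbp7 in 13. Igfbp6 reached this level in 7 cells (43.8%, 19.8% to 70.1%), Igf1 and Igfbp4 in 5 cells each (31.2%, 11.0% to 58.7%) and Igfbp3 in 1. Igf2, Igfbp2 and Igfbp5 were listed at 0 in all 16 mMSCs, which allows a share of cells of up to 18.8% (3 cells of 16). In the 5 HL1cm, Igf1, Igf1r and Igfbp5 were at 1 FPKM or more in every cell, Igf2 in 2, Igf2r in 1 and Igfbp4 in 1. Igfbp2, Igfbp3, Igfbp6 and Igfbp7 were listed at 0 in all 5, which allows up to 60% of cells (3 of 5). These limits for a count of 0 are set at 3 cells and are not the exact interval. The intervals and limits cover counting error only.

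Means of log2 FPKM, with values under 1 FPKM set to 1, were compared between mMSC and HL1cm. Of the 10 members, 8 were at 1 FPKM or more in at least 2 of the 21 single cells, as were 11850 genes of the whole table. Of these 8, 4 were higher in mMSC by 1 or more on the log2 scale (Igfbp7, Igf2r, Igfbp6 and Igf1r) and 2 were lower (Igfbp5 and Igf1). Over the 11850 genes, 21.4% were higher and 21.6% lower by this measure. The median difference (mMSC minus HL1cm) was 0.91 over the 8 members and 0.08 over all genes tested. With values under 10 FPKM set to 10, 1 of the 6 members (Igfbp7) remained past a difference of 1, and the shares over all genes fell to 7.44% higher and 7.69% lower.

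**Figure D2:**
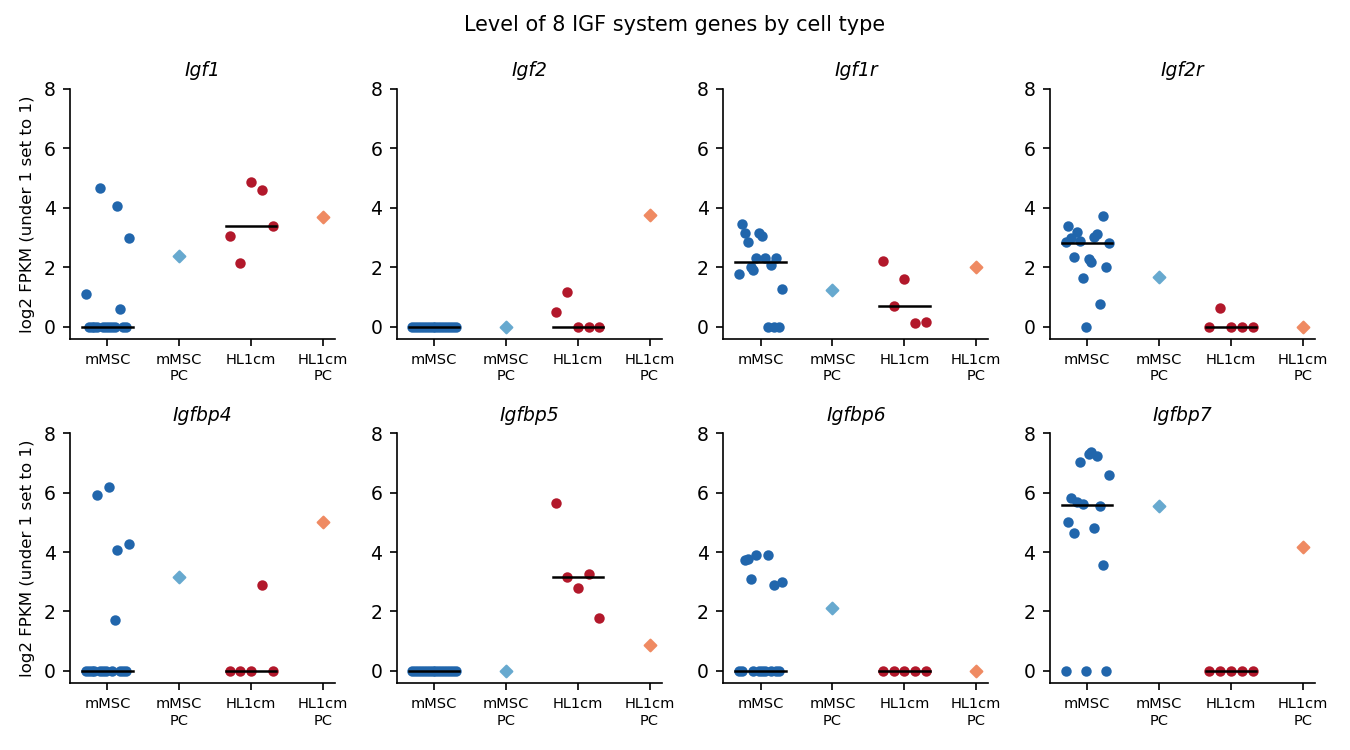
Log2 FPKM (values under 1 FPKM set to 1) of 8 IGF system genes in the 16 mMSCs, mMSC-PC, the 5 HL1cm and HL1cm-PC. Points are libraries, diamonds are population controls and black lines are medians over cells. Igf1 and Igfbp5 lie higher in HL1cm, and Igf2r and Igfbp7 in mMSC.

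Igf1 encodes the ligand that is the main activator of the IGF1 receptor. Igf1 was at 8.35, 4.40, 29.1, 24.2 and 10.5 FPKM in HL1cm1 to HL1cm5 and at 12.8 FPKM in HL1cm-PC. In mMSCs it was listed at 0 in 8 cells and ranged in the other 8 from 0.277 to 25.6 FPKM, with 5.17 FPKM in mMSC-PC. All 5 HL1cm thus lay above the mMSC median of 0.138 FPKM, but the cell types overlapped. The difference in mean log2 FPKM was -2.77.

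Most Igf1 of the mMSCs came from 3 cells, with 25.6 FPKM in mMSC6, 16.7 FPKM in mMSC12 and 7.99 FPKM in mMSC16. mMSC1 and mMSC13 followed at 2.14 and 1.50 FPKM. In mMSC6, mMSC12 and mMSC16, Igf1 stood at 167%, 109% and 52.1% of the HL1cm mean. In the same cells Tnnt2, the cardiac troponin T gene, stood at 0.428%, 0.845% and 0.767% of its HL1cm mean. Tnnt2 was above 0 in 6 mMSCs, and 4 of these (mMSC6, mMSC12, mMSC13 and mMSC16) were among the 5 mMSCs with Igf1 at 1 FPKM or more. Myl7 and Tnni3 did not show this overlap. Myl7 was above 0 in mMSC6, mMSC8, mMSC9, mMSC11 and mMSC14, and of these only mMSC6 had Igf1 at 1 FPKM or more. Tnni3 was above 0 in mMSC15 only, where Igf1 was listed at 0. In the 5 mMSCs without Myl7, Tnnt2 or Tnni3 the difference of Igf1 from HL1cm was -3.39. The part of cardiomyocyte transcripts in the Igf1 values was not tested. Among the macrophage markers, Ptprc and Lyz2 were listed at 0 in every mMSC. Csf1r was at 22.5 FPKM in mMSC16 and listed at 0 in mMSC6 and mMSC12, and Cd14 was at 34.8, 8.20 and 59.8 FPKM in mMSC6, mMSC12 and mMSC16.

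Igf2, the growth factor of the embryo that is expressed from the paternal allele in most tissues, was listed at 0 in all 16 mMSCs and in mMSC-PC. It was at 1.42 FPKM in HL1cm1 and 2.26 FPKM in HL1cm2, listed at 0 in the other 3 HL1cm and at 13.6 FPKM in HL1cm-PC. The transcript was therefore seen in HL1cm libraries only, and was higher in the population control than in any of the 5 cells. H19, the maternally expressed RNA gene next to Igf2 on chromosome 7, was listed at 0 in all 23 libraries. Igf2 lies at bases 142650766 to 142666816 of chromosome 7 (mm10, GENCODE M21) and overlaps an antisense gene. Counting by strand is not stated, and Igf2as in the table was listed at 0 in every library.

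Igf1r, the signalling receptor, was at 4.60, 1.62, 3.05, 1.09 and 1.12 FPKM in HL1cm1 to HL1cm5. In mMSCs it was listed at 0 in mMSC13 and mMSC15, and had a median of 4.58 and a highest value of 11.0 FPKM (mMSC2). The population controls had 2.37 FPKM (mMSC-PC) and 4.05 FPKM (HL1cm-PC), in the opposite order to the medians of the single cells. The cell types overlapped, and the difference in mean log2 FPKM of 1.02 lay close to the limit of 1. It was under 1 on the log2(FPKM + 1) scale (0.64), with values under 0.1 FPKM set to 0.1 (0.59), and without HL1cm2 (0.95), HL1cm4 (0.81) or HL1cm5 (0.82).

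Igf2r, the receptor that clears IGF2, separated the cell types more clearly. It was above 0 in every mMSC, from 0.764 FPKM (mMSC8) to 13.3 FPKM (mMSC14) with a median of 7.08 FPKM. Among HL1cm it was at 1.56 FPKM in HL1cm2 and listed at 0 in the other 4. The population controls kept the order of the cells, with 3.20 FPKM in mMSC-PC and 0.441 FPKM in HL1cm-PC. The ranges met only at HL1cm2, which exceeded 1 mMSC (mMSC8), and the difference in mean log2 FPKM was 2.32.

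Igf2r shares 28.4 kilobases of chromosome 17 with Airn, an antisense RNA gene that silences Igf2r on the paternal allele in many tissues. Airn, named here after its values were seen, was above 0 in 3 libraries. It was at 7.63 FPKM in mMSC8, the mMSC with the lowest Igf2r, at 10.7 FPKM in HL1cm3 and at 24.1 FPKM in HL1cm5. Igf2r was listed at 0 in these HL1cm, as it was in HL1cm1 and HL1cm4, where Airn was also at 0. Reads of the shared stretch cannot be assigned to either gene without strand.

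The receptors were also compared within each cell. Igf1r exceeded Igf2r in all 5 HL1cm. Igf2r exceeded Igf1r in 9 of 16 mMSCs and Igf1r exceeded Igf2r in the other 7. With values under 1 FPKM set to 1, the log2 ratio of Igf2r to Igf1r had a median of 0.87 in mMSCs, with a range from -3.16 (mMSC8) to 3.02 (mMSC11), and lay between -2.20 and -0.06 in HL1cm. Single mMSCs thus ranged from more Igf1r to more Igf2r. The ranges of the cell types cannot be ordered, because the ends rest on the value of 1 FPKM. Igf2r was above 0 in only 1 HL1cm, so the ratios of the others have no lower bound. In mMSC8 Igf2r was at 0.764 FPKM, and in mMSC11 Igf1r was at 0.937 FPKM. Igf1 and Igf1r were both at 1 FPKM or more in 4 of 16 mMSCs and in all 5 HL1cm.

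**Figure D3:**
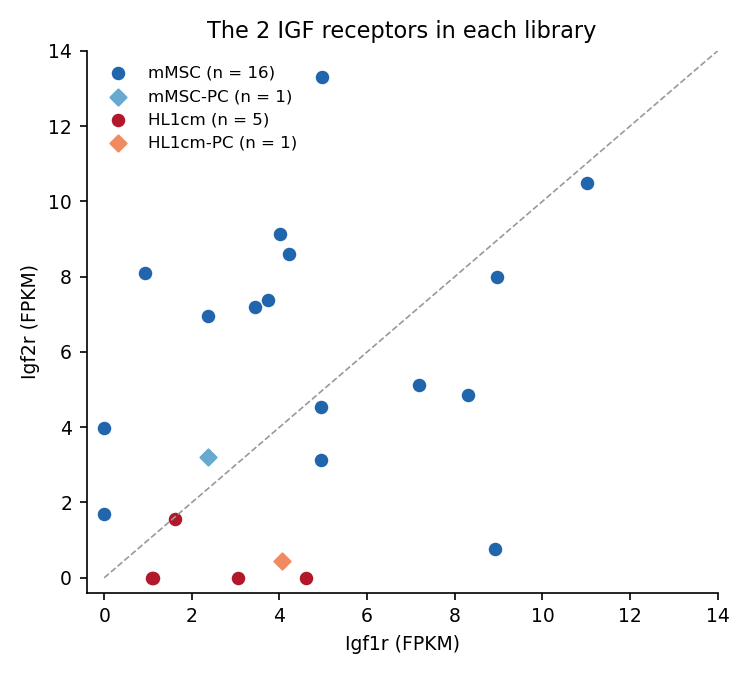
Igf2r against Igf1r, both in FPKM, with 1 point per library and a dashed line of equal levels. The 5 HL1cm and HL1cm-PC lie below the line, and 9 of the 16 mMSCs and mMSC-PC lie above it.

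The IGFBP genes showed a different leading member in each cell type. Igfbp7 (chromosome 5, bases 77349240 to 77408041), whose product binds IGFs weakly, ranged from 11.9 to 165 FPKM in 13 mMSCs and was listed at 0 in mMSC1, mMSC8 and mMSC15. Its median over the 16 mMSCs was 48.2 FPKM, and mMSC-PC had 47.4 FPKM. It was listed at 0 in all 5 HL1cm. The pattern of 2 or more mMSCs reaching 1 FPKM with all 5 HL1cm at 0 was shared by Igfbp6, and by 15% of the 11850 genes.

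HL1cm-PC, unlike the single HL1cm, had 18.2 FPKM of Igfbp7. Of the 8 mesenchymal markers, Ly6a, Cd9, Cd44, Col1a2 and Pdgfrb were listed at 0 in that library, and Vim, Sdc4 and Col1a1 were at 1097, 98.4 and 1.67 FPKM. The part of mesenchymal transcripts in this value was not tested. Of the 10847 genes that reached 1 FPKM in HL1cm-PC or in the mean of the HL1cm, 36.9% were higher in HL1cm-PC than in every single HL1cm.

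Igfbp5 (chromosome 1, bases 72857932 to 72874884), a binding protein that also attaches to extracellular matrix, had the opposite pattern. It was at 49.9, 8.89, 6.87, 9.61 and 3.45 FPKM in HL1cm1 to HL1cm5 and listed at 0 in all 16 mMSCs and in mMSC-PC. The groups did not overlap, which was so for 1.88% of the 11850 genes in this direction. HL1cm-PC had 1.84 FPKM, below all 5 single cells, as had 2.58% of genes. Igfbp2, the neighbour of Igfbp5 with its end 5.46 kilobases from that of Igfbp5, was listed at 0 in all 23 libraries.

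Igfbp4, whose product inhibits IGF action until it is cut by the protease PAPP-A, was found in some cells of both types. It was at 73.9 FPKM in mMSC9, 60.8 in mMSC5, 19.4 in mMSC16, 16.7 in mMSC12 and 3.31 in mMSC11, and listed at 0 in the other 11 mMSCs. Among HL1cm it was at 7.45 FPKM in HL1cm4 and listed at 0 in the other 4, against 32.1 FPKM in HL1cm-PC. The difference in mean log2 FPKM between the cell types was 0.81, under the limit of 1, and the SD between mMSCs was 2.32. It was past the limit without HL1cm4 (1.39) and with values under 0.1 FPKM set to 0.1 (1.18). mMSC9, the highest cell, was also the library with the fewest genes at 1 FPKM or more.

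Igfbp6, whose product prefers IGF2 over IGF1, lay in a narrow band where it was found. It was between 7.37 and 15.1 FPKM in mMSC3, mMSC4, mMSC5, mMSC7, mMSC11, mMSC13 and mMSC16, and was not seen in the other 9 mMSCs or in any HL1cm. mMSC-PC had 4.32 FPKM and HL1cm-PC was at 0. The difference of Igfbp6 in mean log2 FPKM between the cell types was 1.52, but 0 with the median of the cells. Igfbp3, the main IGF carrier in serum, was at 1.55 FPKM in mMSC2 and 4.31 FPKM in mMSC-PC and at 0 in the other 21 libraries.

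Over the 6 IGFBP genes together, mMSCs held 0 to 230 FPKM with a median of 59.3, and HL1cm held 3.45 to 49.9 FPKM with a median of 8.89. Igfbp7 made up 80.2% of the sum on average over the 13 mMSCs that had any, with a range from 42.9% to 100%, and 73.0% in mMSC-PC. It led in 12 of these cells, and Igfbp4 led in mMSC5 with 50.1%. Igfbp5 led in all 5 HL1cm and was the only IGFBP above 0 in 4 of them, while HL1cm-PC was led by Igfbp4 with 61.5%. Of the mMSCs, 3 had no IGFBP above 0, 3 had 1, 7 had 2 and 3 had 3, against 4 in mMSC-PC. The cells without any were mMSC1, mMSC8 and mMSC15, which had 6820, 6965 and 5837 genes at 1 FPKM or more. In these cells the gene with the highest FPKM held 48.2%, 62.5% and 12.6% of the FPKM summed over all genes. That share ranged from 3.02% (mMSC11) to 52.5% (mMSC16) in the other mMSCs.

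**Figure D4:**
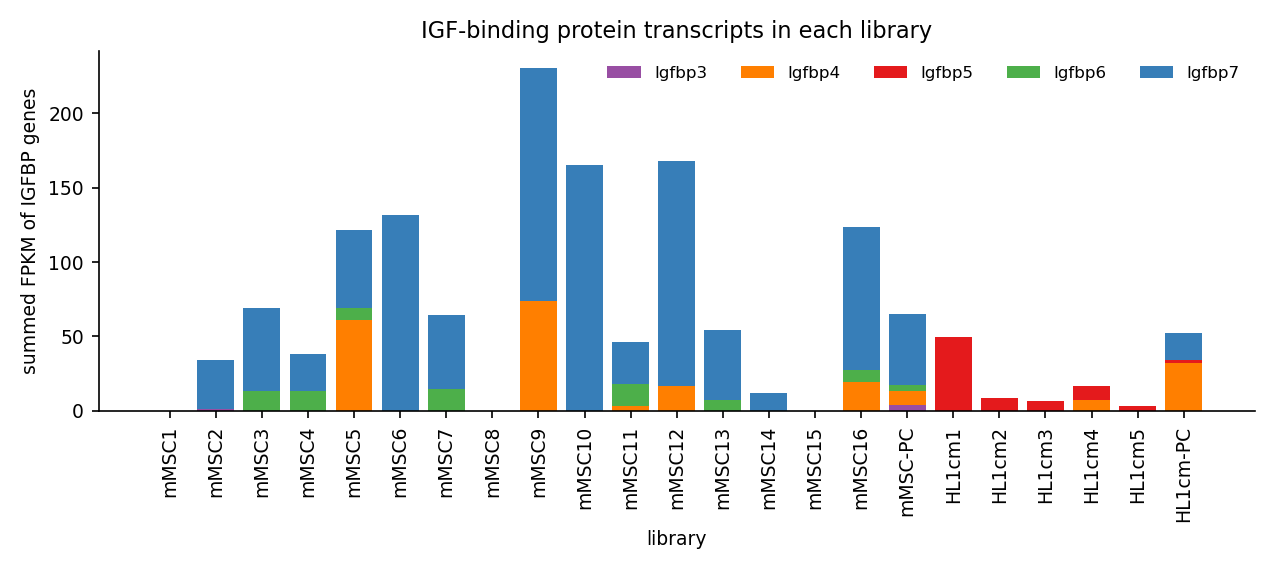
Summed FPKM of the IGFBP genes in each library, stacked by gene (Igfbp2 was at 0 in every library). Igfbp7 makes up most of the bars of mMSCs, and Igfbp5 leads in the 5 HL1cm. The bars of mMSC1, mMSC8 and mMSC15 are at 0.

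Between the 16 mMSCs, the SD of log2 FPKM was 2.59 for Igfbp7, 2.32 for Igfbp4, 1.80 for Igfbp6, 1.58 for Igf1, 1.14 for Igf1r and 0.98 for Igf2r. Of the 10867 genes that reached 1 FPKM in 2 mMSCs or more, 97.4% had a smaller SD than Igfbp7, 93.3% than Igfbp4, 35.0% than Igf1r and 26.2% than Igf2r. By this measure the receptors differed less from cell to cell than Igfbp7, Igfbp4 and Igfbp6 did. Cells listed at 0 enter the SD as 1 FPKM, so a 0 adds more to it where the other cells are high. The median over mMSCs was 48.2 FPKM for Igfbp7, against 4.58 for Igf1r and 7.08 for Igf2r. Where it was found, Igfbp6 lay between 7.37 and 15.1 FPKM. Igfbp7, Igfbp4 and Igfbp6 were above 0 in 13, 5 and 7 mMSCs, and Igf1r and Igf2r in 14 and 16. The parts of missed transcripts and of the level of a gene in the SD were not tested. The median SD was 1.69 over the 6 members and 1.38 over all 10867 genes. For Igf1r, Igf2r and Igfbp7, which reached 1 FPKM in 8 mMSCs or more, the order was the reverse, with a median SD of 1.14 against 1.50 over 6777 genes. Gapdh, used for comparison, had an SD of 0.29.

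The members did not vary together to a great degree. Among the 15 pairs of the 6 members, Pearson's r over the 16 mMSCs lay between -0.23 (Igf1 and Igfbp6) and 0.43 (Igfbp4 and Igfbp7), with a median of 0.15. The cells share a device, no separate cultures are named for them and the FPKM table does not give their depth, so these values are descriptions. Among 6776 candidate genes, the genes most like Igf1r over the mMSCs were Arl2bp (r = 0.85), Snrnp70 (0.80) and Erich1 (0.77). Those most like Igf2r were Ahnak (0.79), Bsg (0.77) and Ankrd13c (0.76), and those most like Igfbp7 were Abhd5 (0.84), Rb1cc1 (0.81) and Serf1 (0.79). These lists changed with the measure. Of the 9 genes, 1 (Abhd5) was among the 3 highest by Spearman's rho and 0 were without mMSC9 and mMSC15, where r for the same genes ranged from 0.72 to 0.81.

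Both population controls were set against the mean FPKM of their single cells. For mMSC, Igfbp3 was higher by 2.11 on the log2 scale in mMSC-PC, while Igf1r and Igf2r fell below the mean of the cells, with differences of -1.04 and -1.01. Over 10996 genes, 27.1% were higher and 19.4% lower by 1 or more. Igfbp3 was above every single mMSC, as were 12.1% of genes, and 0 members lay below every single mMSC, as 2.15% of genes did. The differences were 0.57 for Igf1, -0.29 for Igfbp4, -0.22 for Igfbp6 and -0.40 for Igfbp7, all under 1. Gapdh was at 551 FPKM in mMSC-PC and had a mean of 212 FPKM in the cells. Scaled to Gapdh, the difference of Igfbp3 was 0.93, under 1, those of Igf1r and Igf2r were -2.57 and -2.47, that of Igf1 turned to -0.90 and that of Igfbp7 was -1.86. With a fixed sum over all genes (TPM), Igf1r and Igf2r were under 1 in size at -0.52 and -0.55, Igfbp4 turned to 0.47 and Igfbp6 to 0.06. On the log2(FPKM + 1) scale Igf1r and Igf2r were at -0.80 and -0.83. Against the 5 mMSCs without Myl7, Tnnt2 or Tnni3, the difference of Igf1 was 2.37. Of these cells, mMSC1 had Myh6, another cardiomyocyte marker, at 2.68 FPKM.

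For HL1cm, the log2 differences from the mean of the cells were 4.43 for Igfbp4, 4.19 for Igfbp7, 3.77 for Igf2 and -3.10 for Igfbp5, where values under 1 FPKM were set to 1. Over 10847 genes, 41.1% were higher and 13.6% lower by 1 or more in HL1cm-PC. Igf1 and Igf1r lay at -0.26 and 0.82. The leading IGFBP transcript of the single HL1cm was therefore a minor one in their population control.

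The wider IGF pathway was read from a list of 48 further genes, of which 37 passed the same filter as the members. Of these, 6 were higher in mMSC by 1 or more on the log2 scale (16.2%) and 5 lower (13.5%), both under the shares over all genes. The median difference was -0.01. With TPM, the split was 9 higher and 3 lower, against 25.2% and 17.7% over all genes, and the median of all 11850 genes moved by 0.15. Scaled to Gapdh, the split was 8 and 5, against 25.9% and 18.5% over all genes, and the median moved by 0.15.

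Among the other IGF binders, Igfals, the acid labile subunit of the serum complex, was listed at 0 in all 23 libraries. Igfbp1 was above 0 in 1 mMSC (1.09 FPKM) and Igfbpl1 in 3 mMSCs (2.51 FPKM at most), and both were at 0 in HL1cm. Tmem219, a proposed receptor for IGFBP3, was above 0 in 8 mMSCs and 3 HL1cm and reached 70.2 and 68.1 FPKM. The insulin receptor gene Insr was above 0 in all 5 HL1cm (0.954 to 15.7 FPKM) and in 8 mMSCs, with a difference of -1.90. Insr exceeded Igf1r in 4 of 5 HL1cm and in 1 of 16 mMSCs. HL1cm-PC had the opposite order to most HL1cm, with 3.14 FPKM of Insr and 4.05 FPKM of Igf1r. Insrr was at 0 throughout. Of the proteases, Pappa and Pappa2 stayed under 1 FPKM in every cell, and Htra1 was at 1 FPKM or more in 10 mMSCs and 4 HL1cm.

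Downstream, the adaptor Grb2 was at 1 FPKM or more in 15 mMSCs and 3 HL1cm (difference 1.15), while the population controls had the opposite order with 1.61 FPKM in mMSC-PC and 7.20 FPKM in HL1cm-PC. Akt1, a kinase activated through PI3K, ranged from 5.82 to 179 FPKM in mMSCs and from 0 to 28.8 FPKM in HL1cm (difference 2.30). Akt2, its close relative linked to insulin action, had the opposite sign at -1.60, with medians of 2.25 FPKM in mMSCs and 7.07 FPKM in HL1cm. Beside these and Insr, the genes past 1 included Shc1 and Igf2bp3 (higher in mMSC) and Irs2, Pik3ca and Igf2bp1 (lower in mMSC), named here, as are Htra1, Pappa, Pappa2, Ghr and H19, after their values were seen. All 4 genes of the growth hormone arm, through which Igf1 is regulated, differed by less than 1, and Ghr was above 0 in all 21 cells.

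Hmga2, a chromatin protein gene that regulates Igf2bp2, had the greatest difference of the list. It ranged from 22.6 to 231 FPKM in mMSCs, around a median of 133, while HL1cm3 had 1.07 FPKM and the other 4 HL1cm were listed at 0. All mMSCs lay above all HL1cm, as was so for 2.26% of the 11850 genes. The RNA-binding protein genes that take their names from Igf2 differed in part in which member was seen. Igf2bp3 was above 0 in 13 mMSCs and no HL1cm, and Igf2bp1 in 4 HL1cm and no mMSC. Igf2bp2, its values named here after they were seen, was found in both cell types. It was at 1 FPKM or more in 11 mMSCs and 2 HL1cm, with a difference of 0.95. The population controls had 24.3 FPKM (mMSC-PC) and 1.62 FPKM (HL1cm-PC).

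**Figure D5:**
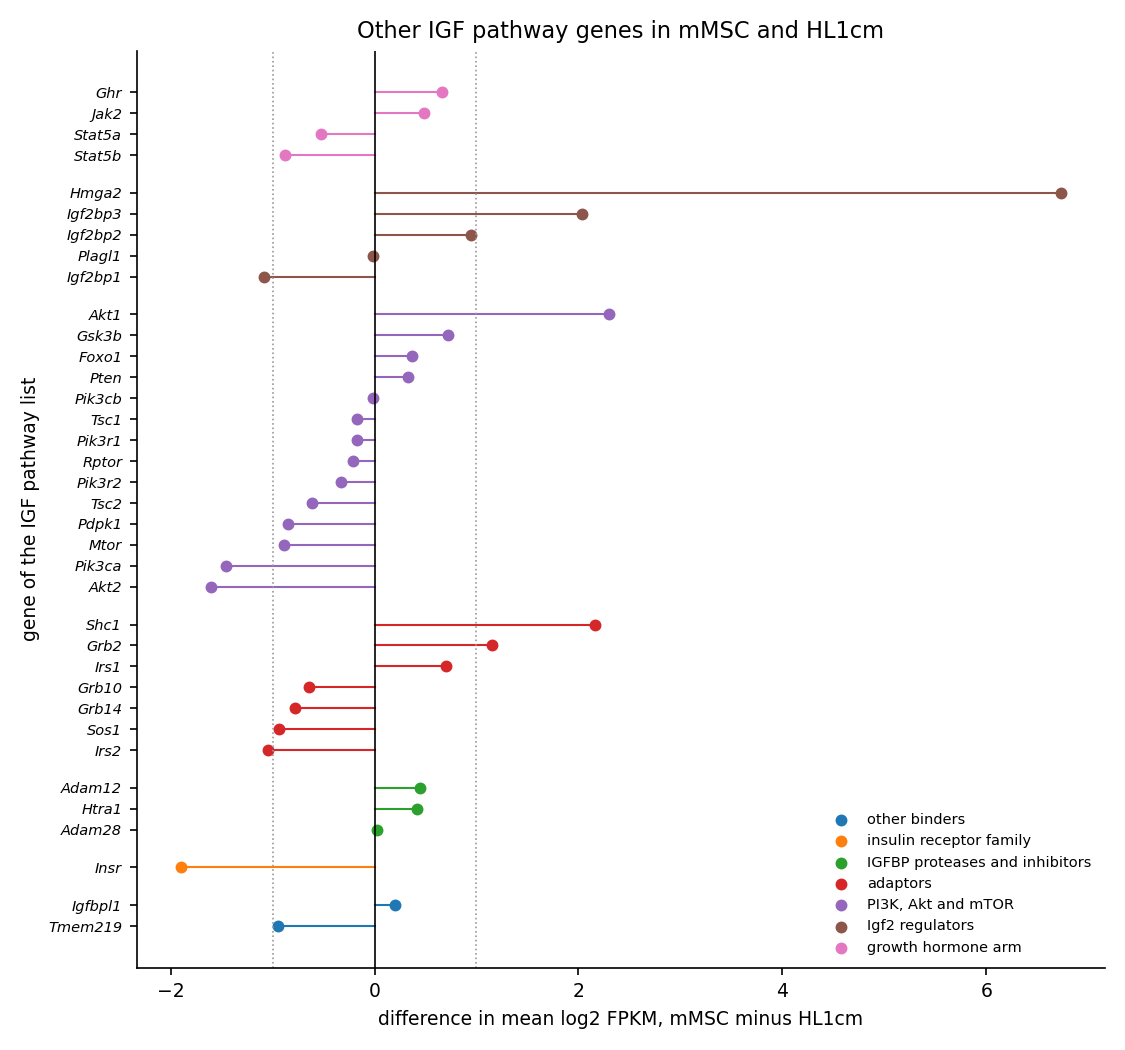
Difference in mean log2 FPKM (mMSC minus HL1cm) for all but 1 of the 37 genes of the IGF pathway list that passed the filter, coloured by role, with dotted lines at a difference of 1 in either direction. Hmga2 lies at 6.73, and 26 of the genes lie between the dotted lines.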

How the data were processed

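Single cells were profiled by RNA-seq after cDNA preparation on the Fluidigm C1 chip. The population controls were bulk RNA run in parallel, and the paper does not say whether their cDNA was made on the chip. The authors aligned reads to mm10 with Tophat 2.0.12, estimated abundance with Cufflinks 2.2.1 under default options, and deposited FPKM values, which were used as they stand. Low FPKM values showed no clear steps of whole reads, so the depth of each library is not known from the table and no interval on a level was made. For log2, 1 FPKM was the lowest value allowed. Differences are means over 16 mMSCs minus means over 5 HL1cm, taken for genes that reached 1 FPKM in 2 or more cells, and called at 1 on the log2 scale. No test between cell types was made. The members, the pathway list and the marker lists were chosen with earlier results of these data known.

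Genes were named by a rule: the members, the insulin receptor family, the other binders, pathway genes past 1 with a mean of 10 FPKM or more, and the 3 genes with the highest Pearson's r to each member that reached 1 FPKM in 8 mMSCs or more. Exceptions are marked. The counts over the pathway list include 1 gene that is not reported here by name or drawn. Shares of cells carry exact (Clopper-Pearson) 95% intervals. Positions are from GENCODE M21 and start site sequences from RefSeq, which held all 10 members. The calculations were tested on simulated data. Calculations ran in Python 3.11.15 (pandas 2.3.3, numpy 2.4.6, scipy 1.17.1), with plots from matplotlib 3.10.9.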

Additional observations from a re-analysis of the deposited data

Results flagged for a closer look

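With 5 cells, a HL1cm stands apart when its gap to the nearest other cell exceeds 0.71 of the range (Dixon's 95% value). Of 12 genes that could be examined, 4 had such a cell. Chance flags about 1 in 20 groups of continuous values, a rate that does not apply where the other cells are all at 0. Igfbp5 in HL1cm1, at 49.9 FPKM, lay above the next cell (HL1cm4) at 9.61 FPKM, with a gap of 0.867 of the range, but 0.617 on the log2 scale. The FPKM summed over all genes was 2.26e+06 in HL1cm1 and 6.73e+05 in HL1cm4, and the gap was not measured with TPM. The other 3 are genes above 0 in a single HL1cm, where the gap equals the range by construction, namely Igf2r in HL1cm2 (1.56 FPKM), Igfbp4 in HL1cm4 (7.45 FPKM) and Hmga2 in HL1cm3 (1.07 FPKM).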

How the results depend on the processing

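No paired analysis was possible because the replicate numbers only name cells and no result comes from a test. The value below which FPKM is not told apart had the most effect. At 10 FPKM, the members past a difference of 1 fell from 6 to 1, the pathway genes from 11 to 2, the median SD of the members from 1.69 to 0.30 (over all genes from 1.38 to 0.48), and the members at the limit in at least 8 mMSCs from 3 to 1, while the shares over all genes fell to 7.44% higher and 7.69% lower. At 0.1 FPKM, 26 pathway genes passed, against 32.2% higher and 30.4% lower over all genes, and the median SD was 3.19 against 2.52. In the 5 mMSCs without Myl7, Tnnt2 or Tnni3, an alternative added after seeing the data, 6 members and 17 of 35 pathway genes passed, against 26.7% higher and 24.6% lower of 10550 genes. Of the 9 most alike genes, 1 was kept with Spearman's rho and 0 without mMSC9 and mMSC15. Leaving out each HL1cm in turn gave 5 to 6 members and 12 to 16 pathway genes. The remaining 48 values of the summary results kept within the spread or within 1.5 times, and no called difference of a member between mMSC and HL1cm changed sign. For the median difference over the members, the spread allowed was wider than the difference itself. This median fell from 0.91 to 0.02 at 10 FPKM and to 0 with the median of the cells. Depth is unknown from the FPKM table, and its part in the values listed at 0 was not tested.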
